A study of Mus musculus with 3 samples.

Results

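The skeletal muscle programme was followed through 3 droplet single-cell libraries of embryonic mouse thymic lobes by 10 genes: Pax7, Myf5, Myod1, Myog, Actc1, Ttn, Myl1, Tnnt1, Mymk and Des. They are 10 of the 27998 genes in the matrices, and they were chosen by their UMI counts in these same libraries, so every level of these genes given here is a description and not a test. UMIs are unique molecular identifiers, which count captured RNA molecules. The lobes came from embryos of embryonic day 13 to 13.5 and were dissociated with trypsin, and each of 3 genotypes gave 1 library: a wild-type control, Tbx1neo2/neo2 and Foxn11089/1089, all on the C57BL/6 background. Tbx1neo2 carries a neomycin cassette in an intron of Tbx1, which codes for a transcription factor of the pharyngeal apparatus, and Foxn11089 carries a small deletion in Foxn1, which codes for the transcription factor of thymic epithelium. Since each genotype is 1 library, and the number of embryos behind each library is not given in the sources used here, no difference between genotypes has a replicate check, and all intervals below are 95% intervals that cover counting error only. A library and its genotype cannot be told apart. The files hold 23220 cells after a filter that kept 5932 of 6410 control, 5516 of 5759 Tbx1neo2/neo2 and 11772 of 12447 Foxn11089/1089 barcodes.

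Skeletal muscle forms in steps that are marked by different genes. Pax7 and Myf5 are transcription factors of muscle progenitors and newly committed myoblasts, Myod1 commits cells to the muscle fate, and Myog drives their exit from division and their differentiation. Differentiating myocytes then make the contractile apparatus and fuse. Actc1 is the cardiac alpha-actin, which embryonic skeletal muscle also uses, Ttn is the giant spring protein titin, Myl1 is a myosin light chain, Tnnt1 is the slow skeletal troponin T, Mymk (myomaker, under the older symbol Tmem8c in the files) is the membrane protein needed for fusion, and Des is desmin, an intermediate filament of all muscle types. Some of the muscles of the neck and throat arise from the pharyngeal arches next to the thymus.

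The promoters are shown because the genes are compared below by whether their UMIs lay in cells with Myog or Myod1, whose proteins bind E-boxes. In the GRCm38 annotation Myog (ENSMUSG00000026459) lies on chromosome 1 at 134289989 to 134292548, Actc1 (ENSMUSG00000068614) on chromosome 2 at 114047282 to 114053548, Myl1 (ENSMUSG00000061816) on chromosome 1 at 66924295 to 66945404 and Des (ENSMUSG00000026208) on chromosome 1 at 75360329 to 75368579. The 250 bases before the RefSeq start site (GRCm38.p6) are given for these 4 genes, 5′ to 3′ on the strand of the gene, with E-boxes of the form CANNTG and the CArG motif in capitals. 8 of the 10 genes had a promoter in the RefSeq table.
Myog promoter, chr1:134289754-134290003, plus strand: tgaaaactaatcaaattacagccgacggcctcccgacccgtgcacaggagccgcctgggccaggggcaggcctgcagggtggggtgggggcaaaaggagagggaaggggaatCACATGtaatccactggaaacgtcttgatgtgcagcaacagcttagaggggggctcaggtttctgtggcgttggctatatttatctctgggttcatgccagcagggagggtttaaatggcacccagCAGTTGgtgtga
Actc1 promoter, chr2:114052876-114053125, minus strand: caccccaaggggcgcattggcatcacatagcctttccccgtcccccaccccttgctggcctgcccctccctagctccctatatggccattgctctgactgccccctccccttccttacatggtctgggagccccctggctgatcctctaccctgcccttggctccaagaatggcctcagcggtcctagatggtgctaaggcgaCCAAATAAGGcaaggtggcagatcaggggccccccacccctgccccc
Myl1 promoter, chr1:66945057-66945306, minus strand: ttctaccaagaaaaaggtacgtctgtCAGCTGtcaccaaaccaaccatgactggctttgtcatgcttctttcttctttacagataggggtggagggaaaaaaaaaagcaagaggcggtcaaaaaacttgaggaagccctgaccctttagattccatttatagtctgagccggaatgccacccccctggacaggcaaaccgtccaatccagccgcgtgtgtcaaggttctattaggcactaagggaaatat
Des promoter, chr1:75360042-75360291, plus strand: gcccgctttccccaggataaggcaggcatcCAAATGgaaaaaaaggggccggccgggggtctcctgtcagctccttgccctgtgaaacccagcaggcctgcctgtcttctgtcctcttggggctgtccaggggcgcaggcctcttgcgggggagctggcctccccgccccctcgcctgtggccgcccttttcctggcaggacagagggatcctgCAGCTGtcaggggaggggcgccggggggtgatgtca
Both strands were searched. Of the 8 promoters, 5 held a CANNTG (Myog, Ttn, Myl1, Tnnt1 and Des), against 66.2% of the 32851 promoters in the table, and 2 held the form CAGCTG (Myl1 and Des), against 13%. The MEF2 motif was searched as YTAWWWWTAR, where Y is C or T, W is A or T and R is A or G. In this form it was found in the Ttn promoter alone of the 8 (2.92% of all promoters). The Myog promoter holds ctatatttat, which differs from this form in its last base only. The CArG motif was found in the Actc1 promoter alone (1.47%). A match of letters is a description and not a shown site of binding.

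The kept cells held 81885273 UMIs in the control, 136517727 in Tbx1neo2/neo2 and 202825405 in Foxn11089/1089, with medians of 13410, 20732.5 and 14652 per cell. In all, 55 kept barcodes occurred in more than 1 library, and none of them carried Myog or Myod1 in more than 1. Levels are UMIs per 1000000 UMIs of the cells named (CPM). Neither targeted gene was lower in its own mutant library. Tbx1 stood at 1.39 CPM (1.15 to 1.67) in control cells against 4.81 CPM (4.44 to 5.19) in the library labelled Tbx1neo2/neo2, and Foxn1 at 38.4 CPM in control cells against 76.5 CPM in the library labelled Foxn11089/1089. Tbx1 was also above the control in the library labelled Foxn11089/1089, at 5.43 CPM (5.12 to 5.76). The study describes Tbx1 levels in Tbx1neo2/neo2 embryos as well below normal, and it states that the embryonic thymus does not express Tbx1. The counts here, taken over all cells of the lobes, are another measure and do not show the lower level. They do not check the study's statement or the label. The cause of these levels was not tested. Counts of RNA ends outside the altered sequence do not check the Foxn11089/1089 label. Every direction below is between libraries by their labels. Fewer cells of a type and less RNA per cell cannot be told apart in levels over all cells of a library.

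Over all kept cells each of the 10 genes was highest in the library labelled Tbx1neo2/neo2, and 9 of the 10 were lowest in the control, the exception being Myf5 with 4 UMIs in each of the other libraries. Myog had 112 UMIs in the control (1.37 CPM), 4692 in Tbx1neo2/neo2 (34.4 CPM) and 938 in Foxn11089/1089 (4.62 CPM), so it was 25.1-fold (20.8 to 30.6) and 3.38-fold (2.78 to 4.15) above the control. Myod1 had 33, 1619 and 254 UMIs in the same order, and Actc1 195, 8146 and 2156. The progenitor genes were near 0 in both other libraries: Pax7 had 1 UMI in the control, 239 in Tbx1neo2/neo2 and 5 in Foxn11089/1089, and Myf5 had 4, 198 and 4. Pax7 (ENSMUSG00000028736, chromosome 4 at 139737062 to 139833528) and Myf5 (ENSMUSG00000000435, chromosome 10 at 107482908 to 107486134) came almost wholly from Tbx1neo2/neo2. The ratio of Pax7 to the single control UMI was 143, with a counting interval of 25.5 to 5686.

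Among the genes of the contractile apparatus and of fusion, Ttn (ENSMUSG00000051747, chromosome 2 at 76703980 to 76982547) had 41, 2547 and 785 UMIs and Mymk (ENSMUSG00000009214, chromosome 2 at 27061636 to 27072179) 20, 448 and 121. Myl1 was close between the 2 mutant libraries, at 12.7 CPM (12.1 to 13.3) in Tbx1neo2/neo2 and 11.9 (11.4 to 12.4) in Foxn11089/1089, against 0.635 in the control. Tnnt1 (ENSMUSG00000064179, chromosome 7 at 4504570 to 4516382) stood at 9.99 CPM in the control, 42.1 in Tbx1neo2/neo2 and 11.2 in Foxn11089/1089, where its ratio to the control was 1.12 (1.03 to 1.22). Des stood at 5.34, 15.6 and 14.3 CPM. All 10 genes were at least 2-fold above the control in Tbx1neo2/neo2, where 23.3% of the 16654 genes with at least 30 UMIs in the 2 libraries together were as much higher, and 7 of the 8 with 30 UMIs were so in Foxn11089/1089, against 14.3% of 16747 genes. The rule used this contrast, so nothing is read from these counts. The median gene stood 1.34-fold above the control in Tbx1neo2/neo2 and 1.12-fold in Foxn11089/1089, so that the fold of each gene relative to the median gene is smaller by that factor.

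**Figure D1:**
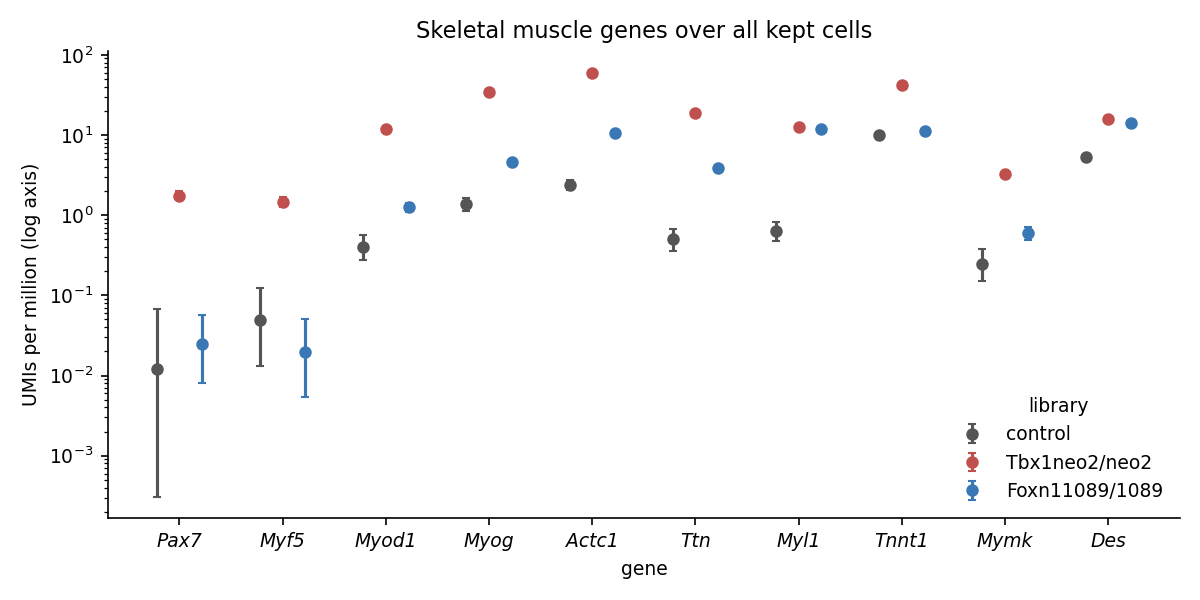
Level of each muscle gene over all kept cells (CPM, log axis) in the 3 libraries, with 95% Poisson intervals for counting error. The Tbx1neo2/neo2 points lie above the control for all 10 genes, and Pax7 and Myf5 stand apart from the other genes in being near 0 in both other libraries.

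Cells with at least 1 UMI of Myog or Myod1 (ENSMUSG00000009471, chromosome 7 at 46376474 to 46379099) numbered 12 in the control, 179 in Tbx1neo2/neo2 and 130 in Foxn11089/1089, or 321 of the 23220 cells. Their share was 0.202% (0.105 to 0.353, Clopper-Pearson) in the control, 3.25% (2.79 to 3.75) in Tbx1neo2/neo2 and 1.10% (0.923 to 1.31) in Foxn11089/1089. Many of them rested on a single UMI, namely 8, 107 and 73 cells. With at least 2 UMIs of the 2 genes together, 4, 72 and 57 cells remained, or 0.0674%, 1.31% and 0.484%. Single UMIs also fell in blood cells. Among cells of the hematopoietic class (at least 3 of 6 markers, and more than of any other class), which should lack both genes, 4 of 1416 in the control (median depth 20062 UMIs) and 18 of 435 in Tbx1neo2/neo2 (median depth 57817 UMIs) had at least 1 UMI, as had 1 of 479 in Foxn11089/1089 (median depth 25849 UMIs), and none had 2. The share of hematopoietic cells with 1 UMI in Tbx1neo2/neo2 (4.14%, 2.47 to 6.46) was no lower than the share over the whole library, so cells with 1 UMI cannot be read as muscle cells there. In Foxn11089/1089 that share was 0.209% (0.00529 to 1.16), against 1.10% over the library.

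The 12 control cells can be given one by one. The cell with most UMIs of the muscle genes had 12822 UMIs in all, with 10 of Myod1, 55 of Myog, 140 of Actc1, 7 of Ttn, 17 of Myl1, 14 of Tnnt1, 11 of Mymk and 8 of Des. A cell of 10700 UMIs had 11 of Myod1, 34 of Myog and 34 of Actc1, and a cell of 14304 UMIs had 5, 18 and 10. These were the 3 control cells with both regulators, and they held all 184 Actc1 UMIs of the 12 cells. None of them had a UMI of Pax7, Myf5 or an epithelial marker. A further cell, of 9150 UMIs and with mesenchymal markers, had 4 UMIs of Myod1 and none of Myog or of the contractile genes. The remaining 8 cells had 1 UMI of either gene, 4 of them were of the hematopoietic class and 2 were of the epithelial class.

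The genes differed in how much of their UMIs lay in cells with Myog or Myod1, and for several the share differed between libraries. Mymk had 95%, 96.9% and 94.2% of its UMIs in these cells in the control, Tbx1neo2/neo2 and Foxn11089/1089, and Actc1 94.4%, 93.0% and 87.4%. Ttn had 91.4% and 87.3% there in the 2 mutant libraries but 24.4% (12.4 to 40.3) of 41 UMIs in the control. Myl1 had 89.0% there in Tbx1neo2/neo2 and 27.0% (25.2 to 28.8) in Foxn11089/1089. For Tnnt1 the share was 2.93% in the control, 73.6% in Tbx1neo2/neo2 and 36.2% in Foxn11089/1089, and for Des it was 4.12%, 43.8% and 7.87%. Of the 239 Pax7 UMIs of Tbx1neo2/neo2, 68.6% lay in cells with Myog or Myod1. All 10 genes in Tbx1neo2/neo2 were at least 2-fold higher in these cells than in the other cells of the library, where 3.41% of 16005 genes were, and in Foxn11089/1089 all 8 with 30 UMIs were, against 8.6% of 16090 genes. Myog and Myod1 define the cells, and the rest were chosen with these counts known.

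**Figure D2:**
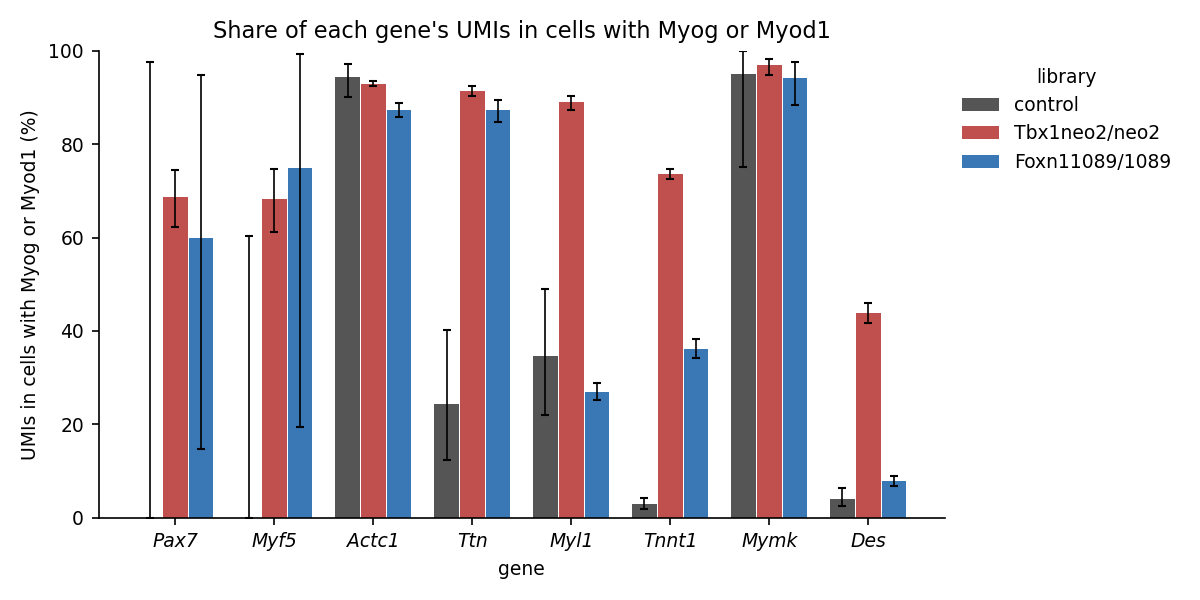
Percent of the UMIs of each gene that lay in cells with at least 1 UMI of Myog or Myod1, per library, with 95% Clopper-Pearson intervals; Myog and Myod1 are left out because they define the cells. Mymk and Actc1 lie between 87.4% and 96.9% in every library, whereas Des is at most 43.8%.

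Outside the cells with Myog or Myod1, Tnnt1 and Des were found in cells of other marker classes in every library. Tnnt1 stood at 21.7 CPM in mesenchymal cells of the control, 17.4 in those of Tbx1neo2/neo2 and 18.7 in those of Foxn11089/1089, and at 16.1, 13.7 and 12.6 in hematopoietic cells, but at 0, 0.397 and 0.599 in red blood cells. Des stood at 17.8, 15.6 and 11.9 CPM in mesenchymal cells and at 0.111, 0.485 and 0.595 CPM in hematopoietic cells. In epithelial cells it stood at 3.75, 2.68 and 19.3 CPM. In Foxn11089/1089 the epithelial class thus lay above the mesenchymal class and held 64.8% of the Des UMIs outside the Myog or Myod1 cells. In smooth muscle and pericyte cells of Tbx1neo2/neo2, where 223 cells without Myog or Myod1 were of that class, Des stood at 29.95 CPM and Actc1 at 34.2 CPM (29.8 to 39.1), the latter with 37.6% of the Actc1 UMIs outside the Myog or Myod1 cells. These 216 Actc1 UMIs lay in 32 of the 223 cells, and 1 cell held 82 of them, so this level does not describe most cells of the class. The counting intervals of Tnnt1 in mesenchymal and red blood cells, and of Des in mesenchymal and hematopoietic cells, did not overlap in any library. The share of all genes that separate between these classes is not given, so this is a description only.

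Myl1 and Des were also high in cells of the parathyroid markers Gcm2 and Casr, a transcription factor and the calcium-sensing receptor. Cells with at least 2 UMIs of these genes together, a class added after the counts had been seen, numbered 320 outside the Myog or Myod1 cells of Foxn11089/1089 and 21 in the control. Myl1 stood at 136 CPM (129 to 142) in the former and at 38.5 CPM (19.2 to 68.8) in the latter, and Des at 136 and 83.9 CPM. These 320 cells held 94.3% of the Myl1 UMIs and 62.3% of the Des UMIs that lay outside the Myog or Myod1 cells of Foxn11089/1089. Actc1 in them stood at 0.409 CPM and Mymk at 0. Most Myl1 UMIs thus lay in Myog or Myod1 cells in Tbx1neo2/neo2 and in Gcm2 or Casr cells in Foxn11089/1089. Tbx1neo2/neo2 had only 2 Gcm2 or Casr cells among its kept cells, so this contrast goes with which cells each library held.

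**Figure D3:**
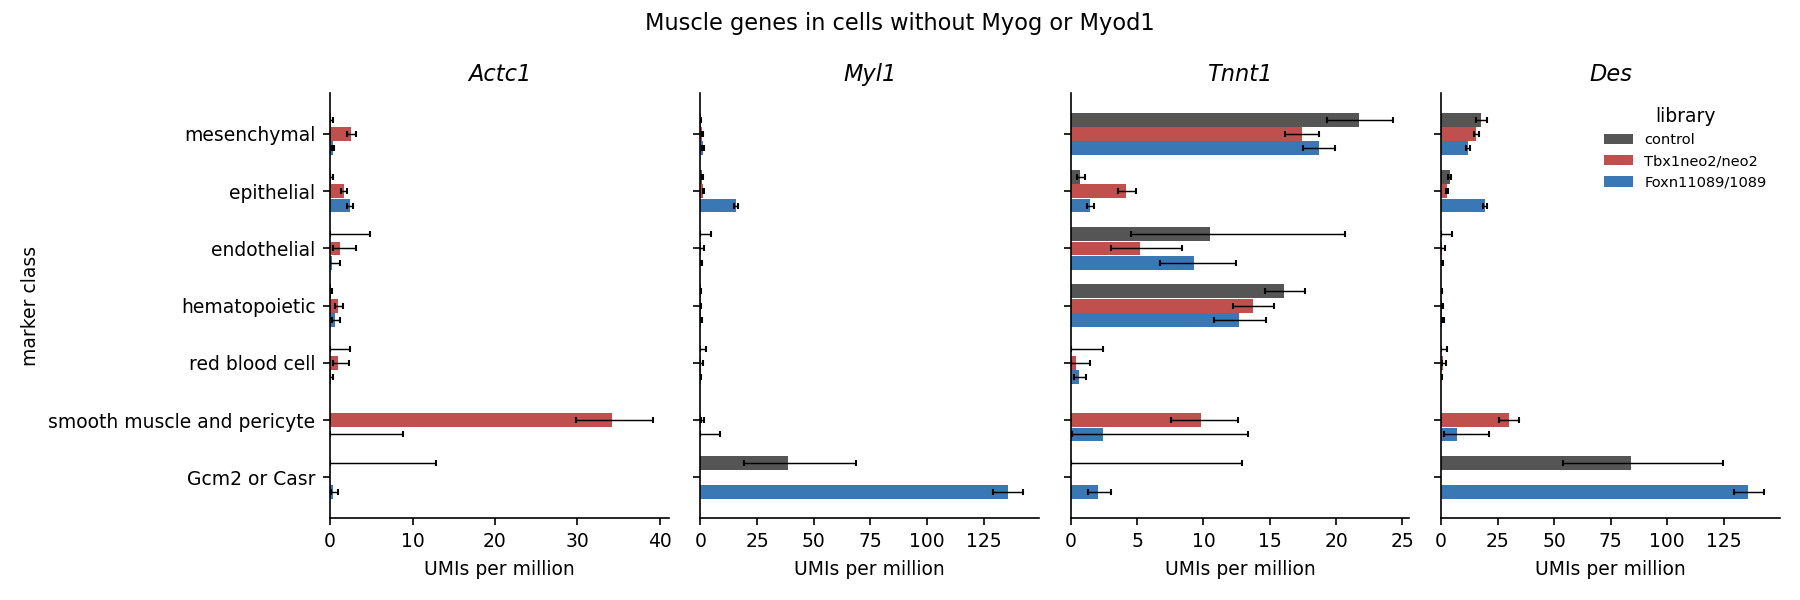
Levels of Actc1, Myl1, Tnnt1 and Des (CPM, linear axes that differ between genes) in cells without Myog or Myod1, by marker class and library, with 95% Poisson intervals; classes with under 20 cells in a library have no bar. Tnnt1 appears in mesenchymal and hematopoietic cells of all 3 libraries, and in the 2 libraries that have a bar for cells with Gcm2 or Casr, Myl1 and Des are highest in those cells.

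In the library labelled Tbx1neo2/neo2, cells with much Pax7 and Myf5 and cells with much Mymk were both present. Cells with at least 5 UMIs of Pax7 and Myf5 together, a cut set after the counts had been seen, numbered 28 there and 0 in the other libraries. All 28 held UMIs of both genes, with a median of 7.5 for Pax7 (2 to 16) and 6 for Myf5 (1 to 15). Myog was at a median of 0 in them and reached 128, Myl1 never exceeded 2 and Mymk never exceeded 2. Tnnt1, by contrast, was found in all 28, with a median of 31 UMIs (1 to 98), and Ttn in 24, with a median of 8.5 (0 to 60). Msc, a repressor that marks branchiomeric and other muscle precursors, was found in 27 with a median of 22 and Lbx1, a factor of migrating limb and tongue precursors, in 22. Pax3 had 7 UMIs in all Myog or Myod1 cells of that library. Epcam had 2 UMIs in the 28 cells.

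At the other end stood 11 cells of that library with at least 10000 UMIs each and at least 10000 CPM of Actc1, Ttn, Myl1 and Tnnt1 summed. They had a median of 142 UMIs of Myog (100 to 276), 34 of Myod1 (24 to 57), 298 of Actc1 (194 to 536) and 25 of Mymk (7 to 43). Pax7 had no UMI in these 11 cells and Myf5 had 1. There were 6 such cells in Foxn11089/1089, with medians of 76.5 for Myog, 20 for Myod1, 212 for Actc1 and 18 for Mymk, and 1 in the control. Pax7 again had no UMI in the 6, and 1 of the 6 had 3 UMIs of Myf5.

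Ordered by the summed level of Actc1, Ttn, Myl1 and Tnnt1, the Myog or Myod1 cells of Tbx1neo2/neo2 differed in which regulators they held. The 96 cells under 100 CPM had little of any of the genes, with 16.1 CPM of Myog. In the 16 cells of 100 to 1000 CPM, Pax7 stood at 117 CPM and Myf5 at 112 CPM, Myod1 at 66.7 and Myog at 32.5. In the 46 cells of 1000 to 10000 CPM, Pax7 was at 49.6 and Myf5 at 33.6, and Myog was at 1527. In the 21 cells above, Pax7 was at 0, Myf5 at 7.69 and Myog at 4688 CPM. Between the last 2 groups Myod1 went from 640 to 1010 CPM and Mymk from 90.4 to 692 CPM. The second group holds under 20 cells, and without it Pax7 runs from 0.429 over 49.6 to 0. Pax7 and Myf5 together were 29.8-fold (9.999 to 146) higher in the second group than in the fourth. Cut by rank instead, the 119 lower cells stood at 0.820 times (0.636 to 1.06) the 60 highest, so the order of Pax7 and Myf5 holds for the fixed limits and not for this cut. Across the 72 cells with at least 2 UMIs of the regulators, rank correlations of CPM were 0.76 for Pax7 with Myf5, 0.75 for Myog with Actc1 and -0.66 for Pax7 with Myog. These pairs are among the strongest. With the contractile genes Pax7 stood at -0.60 for Actc1, -0.42 for Myl1, -0.35 for Tnnt1 and -0.08 for Ttn. These cells share 1 library and differ in depth, and the values are descriptions.

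**Figure D4:**
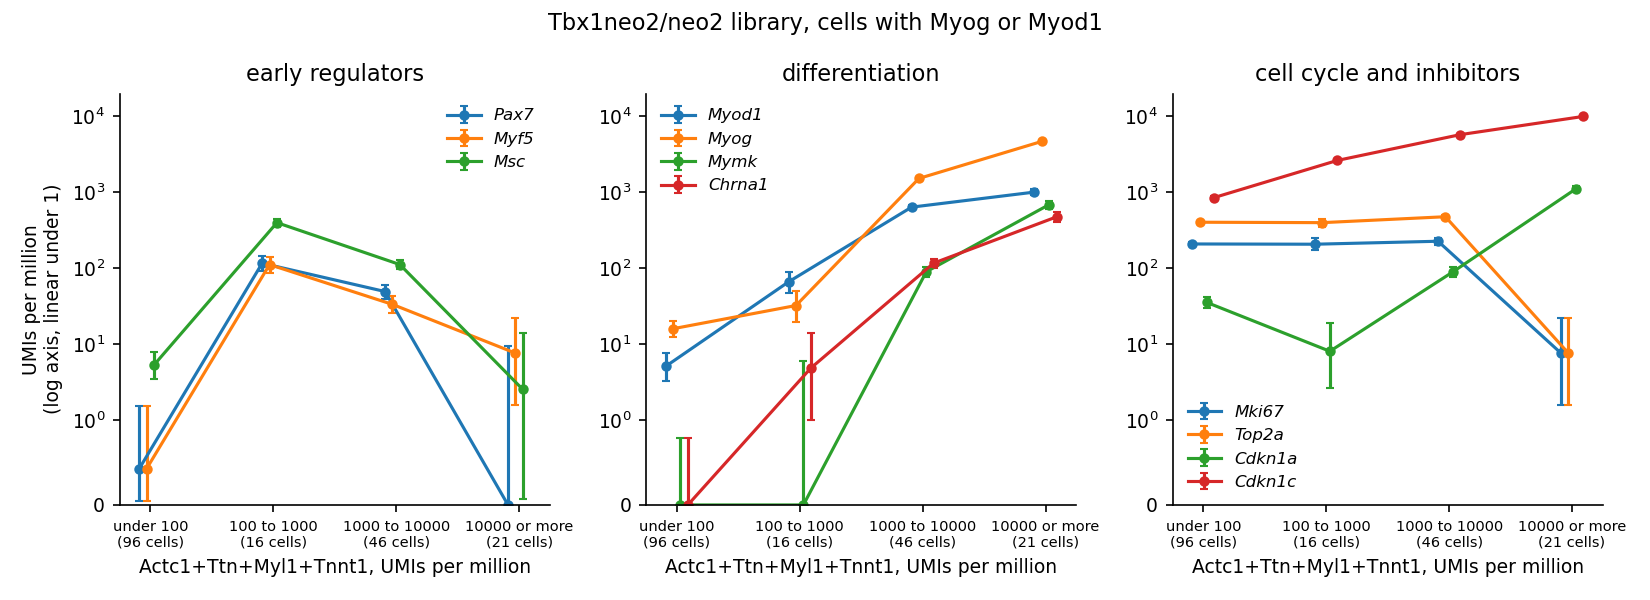
Level (CPM, log axis that is linear under 1) in Myog or Myod1 cells of the Tbx1neo2/neo2 library, in 4 groups by the summed level of Actc1, Ttn, Myl1 and Tnnt1, with 95% Poisson intervals and cell numbers under each group. Pax7, Myf5 and Msc peak in the group of 100 to 1000, and Mki67 and Top2a drop in the highest group as Cdkn1a and Cdkn1c reach their highest levels.

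Classes by the regulators alone did not use the contractile genes. In Tbx1neo2/neo2, 21 cells had Pax7 or Myf5 and neither Myod1 nor Myog, 38 had Myod1 without Myog, 57 had both and 84 had Myog without Myod1. The 21 cells stood at 109 CPM of Actc1, 134 of Ttn and 220 of Tnnt1, against 5.58 of Myl1 and 1.12 of Mymk. The 57 cells stood at 3226, 993, 1705, 684 and 195 CPM of Actc1, Ttn, Tnnt1, Myl1 and Mymk. The 4 summed contractile genes were 14.1-fold (12.8 to 15.6) higher in the 57 than in the 21. The place of the class with Myod1 and no Myog depended on depth. Thinned to 5000 UMIs, 11 such cells had 18.2 CPM of Actc1, 218 of Ttn and 291 of Tnnt1. The 17 cells of the Pax7 or Myf5 class then had 141, 259 and 518 CPM. Thinned to 2000 UMIs, the values were 200, 200 and 1100 CPM in 5 cells, against 62.5, 93.8 and 781 in 16. The 84 cells with Myog alone stood at 28.8 CPM of Myog and 19.1 of Actc1, and 27 of them were of the epithelial class and 14 of the hematopoietic class. Of the 33 Pax7 cells among the Myog or Myod1 cells, 33 had Myod1, 30 had Ttn and 20 had Myog. These 33 are conditioned on a regulator being found, and 47 cells of the library had Pax7 in all. Detection also depended on depth: thinned to 5000 UMIs, 7 of 14 Pax7 cells had Myod1, 11 had Ttn and 5 had Myog, and thinned to 2000, 1, 1 and 0 of 7.

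The cell cycle genes differed along the same groups. The 12 cell cycle genes summed to 3051 CPM (2915 to 3193) in the second group of Tbx1neo2/neo2, 2837 (2760 to 2916) in the next and 341 (285 to 404) in the highest. Mki67, a marker of cycling cells, stood at 208, 228 and 7.69 CPM, and Top2a, the topoisomerase of dividing cells, at 400, 479 and 7.69. The inhibitor Cdkn1c went over the same groups from 2632 over 5750 to 9976 CPM, and Cdkn1a, which is known to accompany myoblast exit from division, from 8.13 over 89.9 to 1110. In Foxn11089/1089 the 6 cells of the highest group had 62.1 CPM (28.4 to 118) of the cell cycle genes, 8764 of Cdkn1c and 807 of Cdkn1a. Mki67 and Top2a had no UMI in them. With the cells under 10000 UMIs left out, the highest group of Tbx1neo2/neo2 kept 11 of 21 cells, Mki67 at 8.11 and Cdkn1c at 10307 CPM.

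Of the lists of other muscle genes, those of the sarcomere, the synapse and excitation were mostly higher in Myog or Myod1 cells, and those of regulators and origin were mixed. Of the 20 sarcomere genes, 19 had at least 30 UMIs in Tbx1neo2/neo2 and all 19 were at least 2-fold higher in Myog or Myod1 cells than in the others, with a median of 26.8-fold, and in Foxn11089/1089 19 of 19 were, with a median of 78.96-fold. The median over all genes was 0.947 and 1.12, and 3.41% and 8.6% of all genes were at least 2-fold higher. The fast light chain Mylpf reached 217 and 416 CPM and the troponin Tnnc1 150 and 239 CPM in these cells of the 2 libraries. All 6 of the 7 neuromuscular synapse genes that had 30 UMIs were as much higher in both libraries, and Chrna1, the alpha subunit of the muscle acetylcholine receptor, had 402 UMIs in these cells of Tbx1neo2/neo2, none of them in the lowest group. Of the 10 genes of excitation and energy use, 8 of 10 were so in Tbx1neo2/neo2 and 8 of 9 in Foxn11089/1089, with the calcium pump Atp2a1 at the highest level in Tbx1neo2/neo2 (41.3 CPM). The 9 genes of head and trunk muscle origin were mixed, with 4 of 9 at least 2-fold higher in Tbx1neo2/neo2, among them Msc (63.7 CPM inside, 5.21 outside) and Lbx1 (12.3 and 0.318), and 1 lower, Tcf21 (13.6 and 36.2). In Foxn11089/1089, 2 of 8 were higher, Msc and Lbx1, on 15 and 2 UMIs in these cells, and 2 were lower. Of the 7 other myogenic regulators with 30 UMIs, 1 was at least 2-fold higher in Tbx1neo2/neo2, namely Mymx, the microprotein that acts with Mymk in fusion, at 95.5 CPM. In Foxn11089/1089 4 of 8 were, namely Myf6 (18.1 CPM inside, 0.0150 outside), Mymx (47.1 and 0.0400), Mef2c (155 and 69.7) and Six4 (61.4 and 29.0). The Myf6 level rests on few cells, since 37 of the 51 Myf6 UMIs of that library lay in 1 cell. Of the 12 cell cycle genes, 0 were 2-fold higher or lower over all Myog or Myod1 cells of any library.

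Markers of other muscle kinds were checked in the cells with at least 2 UMIs of the regulators. Of the 6 heart markers, 6 were at 0 in the 4 control cells, 3 in the 72 cells of Tbx1neo2/neo2 and 5 in the 57 of Foxn11089/1089, and nearly all heart marker UMIs were of Sln, sarcolipin, which skeletal muscle also makes. No cell of any library was of the heart class. The smooth muscle list summed to 3108, 1637 and 1051 CPM in these cells against 60.2, 564 and 66.3 CPM in the cells without Myog or Myod1, and Acta2, an actin that immature skeletal muscle also makes, gave most of it. The part of these lists in the results was not tested.

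Inside the Myog or Myod1 cells, the libraries differed in the early genes. Pax7 stood at 21.9 CPM (18.7 to 25.6) in Tbx1neo2/neo2 and 1.13 CPM (0.233 to 3.30) in Foxn11089/1089, a ratio of 0.0515 (0.0105 to 0.153), and Myf5 at 18.1 and 1.13 CPM. In the 12 control cells both were at 0. For the 4 with at least 2 UMIs of the regulators, 0 of 4 allows a share of up to 60.2% of cells with a UMI (Clopper-Pearson). Myod1 was 0.442 times (0.386 to 0.505), Myog 0.563 times and Actc1 0.701 times its Tbx1neo2/neo2 level in Foxn11089/1089, and Myl1 1.18 times. At least 2-fold lower there were 3 of the 10 genes, as were 10% of 11630 genes. This comparison was added after the counts had been seen, and 8 of its 10 ratios turned under 1 of 2 other choices of cells. Of the 130 Foxn11089/1089 cells, 80 carried at least 3 epithelial markers, against 52 of 179 in Tbx1neo2/neo2 and 3 of 12 in the control, and without cells with at least 3 markers of epithelial, endothelial, hematopoietic or red blood cells, Myod1 stood at 1.03 times, Myog at 1.28, Actc1 at 1.71 and Ttn at 2.14 times the Tbx1neo2/neo2 level. In cells called by 3 of 10 other muscle markers Myl1 stood at 0.613 times (0.566 to 0.665).

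Depth also differed. Of the cells with at least 2 UMIs of the regulators, 32 of 57 in Foxn11089/1089 had under 10000 UMIs, with a median of 3405.5, and 16 of 72 in Tbx1neo2/neo2, with a median of 1370. In the 32 cells, 27 had Epcam, 30 had Pth, the parathyroid hormone, 26 had Acta2, 25 had Actc1 and 17 had Myod1. Epcam was present in 821 and Pth in 1065 of all 3428 Foxn11089/1089 cells of that depth. None of the 16 shallow Tbx1neo2/neo2 cells had Epcam or Pth, whereas 14 had Actc1. Both genes were rare in that library at that depth, with Epcam in 144 and Pth in 3 of all 2006 cells. Their absence from the 16 cells is therefore not read as a difference between muscle cells of the libraries. The 10 cells of Foxn11089/1089 with at least 10000 UMIs and both Myod1 and Myog had no UMI of Epcam in any, and all 10 had Acta2, Actc1, Tnnt1 and Des. The part of free RNA or of joined cells in the shallow cells was not tested.

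**Figure D5:**
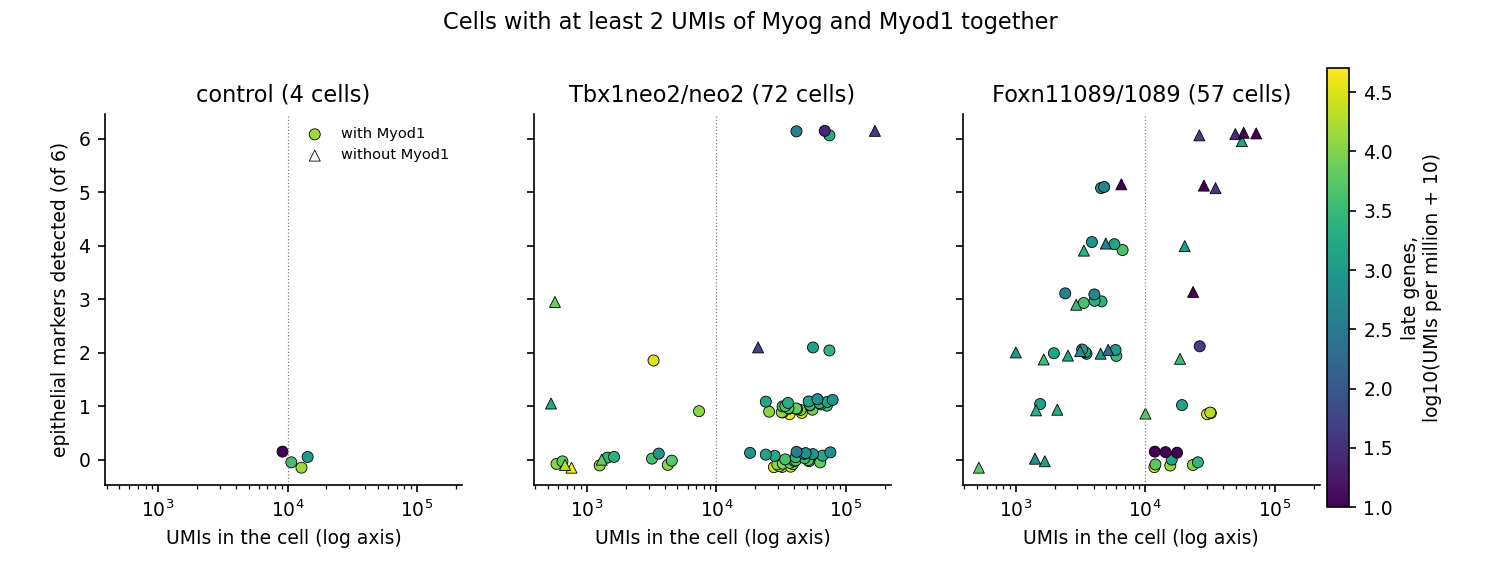
Each point is a cell with at least 2 UMIs of Myog and Myod1 together, placed by its total UMIs (log axis; dotted line at 10000) and by how many of 6 epithelial markers it held (points spread slightly so that they do not overlap). Circles have Myod1 and triangles lack it, colour gives the summed level of Actc1, Ttn, Myl1 and Tnnt1, and Foxn11089/1089 has triangles with 3 to 6 epithelial markers above 10000 UMIs.

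Foxn11089/1089 held cells with Myog, no Myod1 and an epithelial profile. With at least 4 UMIs of Myog, no UMI of Myod1 and at least 3 epithelial markers, a cut set after the counts had been seen, 9 cells were found in Foxn11089/1089 and 0 in each other library. Over the whole epithelial class Myog was no higher there, at 1.56 CPM in 48 of 4004 cells against 1.62 CPM in 30 of 984 in Tbx1neo2/neo2 and 0.0290 CPM in 1 of 2171 in the control, so the count is not shown to be particular to Foxn11089/1089. Of the 9, 8 had between 20221 and 72132 UMIs. The cell with most UMIs (72132) had 7 UMIs of Myog, 85 of Epcam and none of Actc1, Ttn, Tnnt1, Des or Acta2. A cell of 57705 UMIs had 5 of Myog, 77 of Epcam and 8 of Foxn1, and again none of the contractile genes. A cell of 34981 UMIs had 17 of Myog, 60 of Epcam and 0 of Actc1. Actc1 was present in 4 of the 9, with 85 UMIs in a cell of 55930 UMIs that had 14 of Myog, 34 of Epcam and no UMI of Ttn, Tnnt1 or Acta2. Among all 9 cells Des had no UMI and Acta2 had 3.

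The genes most like Myog across the kept cells were found by the mean over libraries of Pearson's r between log(1 + UMIs per 10000). Among other genes with at least 30 UMIs in each library the 5 highest were Mymx (0.597), Fitm1 (0.519), Neb (0.509), Atp2a1 (0.472) and Cdh15 (0.399). The 5 most like Ttn were Neb (0.499), Mymx (0.488), Atp2a1 (0.457), Fitm1 (0.437) and Tnnc1 (0.373). Mymx had 92.3% of its 933 UMIs in the Myog or Myod1 cells and Cdh15, a muscle cadherin, 43.6% of 1432. The cells share their libraries, so these values are descriptions over 23220 cells in 3 libraries.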

How the data were processed

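Per the labels and the study's methods, RNA of dissociated thymic lobes was captured by the 10x Genomics 3′ chemistry and the authors made the deposited count matrices with Cell Ranger (version 3.0.0 in the submitters' processing notes, which also name Seurat). The deposited values are raw UMI counts per gene and barcode, 1 matrix per genotype. The cell filter asked for 200 genes or more and a mitochondrial share below 20%. Genes were matched by Ensembl identifier to GENCODE mouse release M21 (27645 of 27998). UMIs were summed per library and set of cells and divided by the summed totals (CPM), with exact Poisson intervals for levels, Clopper-Pearson intervals for shares and exact conditional binomial intervals for ratios, which were checked on simulated counts. With 1 library per genotype no test between genotypes was made.

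The marker classes needed at least 3 of 6 markers and more than any other class. No doublet caller was run. Cells with at least 3 markers of epithelial, endothelial, hematopoietic or red blood cells were left out in an alternative. For detection at equal depth, cells were thinned once to 2000 or 5000 UMIs with a fixed seed. The named genes were the 10 members, the gene lists for regulators, origin, sarcomere, synapse, excitation, cell cycle and its inhibitors (examples by highest CPM), and the 5 genes most like Myog and Ttn. 1 gene of the origin list is not reported here. Members and lists were chosen with earlier results of these data known. Python (3.11.15) was used, with scipy (1.17.1) for the intervals, numpy (2.4.6) and pandas (2.3.3) for the tables and matplotlib (3.10.9) for the plots.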

Additional observations from a re-analysis of the deposited data

How the results depend on the processing

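No paired analysis was possible because each genotype has 1 library, and for the same reason no library could be left out. The share of cells with Myog or Myod1 depended on how the cells were called. In the control, Tbx1neo2/neo2 and Foxn11089/1089 it was 0.0674%, 1.31% and 0.484% with at least 2 UMIs, and 0.0752%, 1.34% and 0.514% with cells thinned to 2000 UMIs. It was 3.97% in Tbx1neo2/neo2 with cells of at least 2000 UMIs, and 0.838% in Foxn11089/1089 without cells with markers of another class. Cells called instead by 3 of 10 other muscle markers made up 0.0337%, 1.05% and 0.297%, but they were partly other cells: 2 of 2, 48 of 58 and 9 of 35 carried Myog or Myod1, and 26 of the 35 in Foxn11089/1089 carried markers of another class. The order of the 3 libraries was Tbx1neo2/neo2, Foxn11089/1089 and control under each of these.

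In Foxn11089/1089, the count of genes at least 2-fold above the control inside the called cells went from 3 to 0 with the other markers. The 35 cells are mostly without Myog or Myod1, so this sets different cells side by side. No share over all genes is given for this comparison with the control, so nothing is read from the count. With those markers, of the ratios to the control whose counting interval excluded 1, those that turned were Myl1 in Tbx1neo2/neo2 (0.998) and Ttn (0.811), Myl1 (0.612) and Tnnt1 (0.438) in Foxn11089/1089, where the control has 2 cells. In Tbx1neo2/neo2 Myod1 (1.37), Myog (1.17), Actc1 (1.14) and Des (1.44), whose intervals included 1, also came under 1, at 0.793, 0.575, 0.485 and 0.754 with those markers, and at 0.919, 0.748, 0.686 and 0.827 with at least 2 UMIs. Without cells with markers of another class, Foxn11089/1089 stood above Tbx1neo2/neo2 at 1.03 times for Myod1, 1.28 for Myog, 1.71 for Actc1, 2.14 for Ttn, 1.41 for Tnnt1, 1.86 for Mymk and 1.33 for Des, and Myl1 stood below it at 0.613 with the other markers. The 14.1-fold ratio of contractile genes between regulator classes was 10.9 thinned to 2000 UMIs, 10.2 thinned to 5000 and 7.94 with 2 UMIs to call a regulator. The ratio of Pax7 and Myf5 between groups, 29.8 with fixed limits, was 0.820 when the 119 lower cells were set against the 60 highest; many lower cells are tied at 0. Of the Actc1 cells, 88.1% had Ttn after thinning to 5000 UMIs, against 71.4% after thinning to 2000. The causes were not tested. With 0.5 UMI added to both counts, 3 of 8 origin genes in Foxn11089/1089 were higher and 1 lower, an alternative chosen after seeing the data. Of 184 single-gene values, 111 stayed within the counting interval, 61 moved beyond it and 12, named above, turned from an interval that excluded 1.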

Other observations

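Single cells stood out in Myf6 and Sln, which are not among the genes followed here. These cells were picked after their values had been seen. Myf6, the regulator of late myofibres, had 51 UMIs in 6 cells of Foxn11089/1089, and 37 of them lay in 1 cell of 10054 UMIs. That cell also had 18 UMIs of Myog, 58 of Actc1 and 48 of Sln, and no UMI of Myod1, Ttn, Tnnt1, Des or Epcam. In Tbx1neo2/neo2 Myf6 had 10 UMIs in 10 cells, never more than 1 per cell, and in the control 8 UMIs in 8 cells. Sln had 234 UMIs in Tbx1neo2/neo2, with 72 in a cell that had 100 of Myog and 388 of Actc1, and 0 in the control.

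Myl1 appeared outside muscle in Tbx1neo2/neo2 as well. In 60 cells of the neural and glial class it had 75 UMIs in 20 cells, or 52.9 CPM (41.6 to 66.2), against 1.27 CPM in epithelial cells of that library, while Mymk, Pax7 and Myf5 had no UMI in those 60 cells.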
